A study of Mus musculus with 12 samples.

Results

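The genes of glycolysis and of the transcriptional response to low oxygen were described in wild-type embryonic stem cells of the mouse line TBV2, strain 129/SvP. The list held 35 genes, chosen by function with earlier results of these data known. Each gene was read from the brightest, on average, of the probe sets that name it alone. By that rule 32 of the 35 genes were measured, out of 18193 genes measured in all. Gpi1 and Eno1 had no probe set that names them alone, and Gapdh was present only among the array's control probe sets. The study comprised 12 Affymetrix expression arrays. The 6 arrays of the proline group came from cells given 500 µM L-proline for 5 days, and the 6 control arrays came from cells kept for the same 5 days without it. Both groups grew feeder-free and sparsely seeded on gelatin, in medium that contained leukemia inhibitory factor (LIF) and lacked non-essential amino acids. Each group held 2 biological replicates of 3 arrays, and the 3 arrays of a replicate were averaged before any comparison. What kept the biological replicates apart, and the oxygen level of the cultures, are not given in the sources used here, so p-values measure only the spread between these samples, which may be technical. Over probe sets, r was 0.996 to 0.998 between arrays of 1 replicate, 0.985 to 0.989 between replicates of a group and 0.962 to 0.981 between groups.

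Glycolysis takes glucose that has entered through carriers of the Slc2 family, traps it as hexose phosphate, splits it into triose phosphates and ends in pyruvate, which lactate dehydrogenase turns into lactate for export by monocarboxylate carriers. When oxygen is short, the hypoxia-inducible factors, whose alpha subunits are encoded by Hif1a and Epas1, escape hydroxylation and degradation and raise many genes of this pathway together with genes such as Vegfa, Bnip3 and Car9. Mouse embryonic stem cells are known for a high glycolytic rate, and the alpha subunits are controlled largely at the protein level, which arrays do not measure.

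Promoter sequences are shown for 5 members, to set Pfkp, which fell, and 4 members that did not pass the test but are known hypoxia targets or had arrays without overlap beside the motif bound by the hypoxia-inducible factors. The sequences are the 250 bases before an annotated start, read 5′ to 3′ on the gene's strand from RefSeq promoters of build GRCm38.p6, and capitals mark the motif cores ACGTG and GCGTG on either strand. The window of Pfkp, the gene of the platelet-type phosphofructokinase, is chr13:6648772-6649021 on the minus strand. That of Slc16a3, a lactate exporter, is chr11:120948817-120949066 on the plus strand. That of Bnip3, a mitophagy receptor, is chr7:138909507-138909756 on the minus strand, that of Ankrd37, an ankyrin repeat gene induced by hypoxia, is chr8:45999851-46000100 on the minus strand, and that of Tpi1, triose phosphate isomerase, is chr6:124814159-124814408 on the minus strand.
Pfkp: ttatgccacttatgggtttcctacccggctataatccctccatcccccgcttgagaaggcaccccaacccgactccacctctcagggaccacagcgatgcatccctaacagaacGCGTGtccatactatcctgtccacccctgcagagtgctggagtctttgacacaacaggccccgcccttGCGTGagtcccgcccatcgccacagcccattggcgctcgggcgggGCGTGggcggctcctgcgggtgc
Slc16a3: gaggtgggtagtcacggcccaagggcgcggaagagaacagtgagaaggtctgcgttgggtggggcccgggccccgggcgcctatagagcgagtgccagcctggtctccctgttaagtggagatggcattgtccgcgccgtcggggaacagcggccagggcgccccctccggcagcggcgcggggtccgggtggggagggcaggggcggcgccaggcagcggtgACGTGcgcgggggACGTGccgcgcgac
Bnip3: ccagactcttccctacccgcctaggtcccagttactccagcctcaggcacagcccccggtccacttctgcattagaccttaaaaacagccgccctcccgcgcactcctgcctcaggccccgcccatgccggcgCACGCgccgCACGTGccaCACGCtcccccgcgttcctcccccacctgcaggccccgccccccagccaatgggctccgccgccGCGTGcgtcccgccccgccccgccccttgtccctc
Ankrd37: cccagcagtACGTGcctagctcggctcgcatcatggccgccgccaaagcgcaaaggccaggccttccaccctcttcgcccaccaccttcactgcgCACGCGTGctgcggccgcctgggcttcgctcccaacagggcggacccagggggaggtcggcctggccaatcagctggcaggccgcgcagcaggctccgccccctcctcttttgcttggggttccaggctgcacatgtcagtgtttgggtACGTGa
Tpi1: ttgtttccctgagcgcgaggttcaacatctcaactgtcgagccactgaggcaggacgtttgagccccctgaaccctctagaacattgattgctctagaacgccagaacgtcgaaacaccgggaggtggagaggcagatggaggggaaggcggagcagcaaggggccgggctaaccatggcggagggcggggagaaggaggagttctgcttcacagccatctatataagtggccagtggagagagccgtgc
Pfkp carried 3 separate stretches of the motif, Slc16a3 carried 2, Bnip3 4 and Ankrd37 3, whereas these letters were not in the Tpi1 window. The motif overlaps the E-box CACGTG, which the Bnip3 window also holds. Of the 35 members, 32 had a promoter in the table (all but Epas1, Slc2a3 and Ndrg1), and 28 of those (87.5%) held the motif in at least 1 window, against 41.5% of all genes in the table. Counted by window, 36 of 46 member windows (78.3%) held it, against 38.6% of all windows of the same length. Member windows were richer in G and C, with a median of 59.4% against 52.4% over all windows, and 54% of all windows with a content between 55.2% and 67% held the motif. A match describes letters only and was not related to binding.

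Seen as a whole, the list had a median difference near 0 between proline and control cells. No member was higher at an adjusted p of 0.05 in limma's fit over all genes, where 3.03% of all genes were. Epas1 and Pfkp were lower, 2 of the 32 measured members, where 1.34% of all genes were lower, and the other 30 members did not pass the test. Without adjustment 8 of the 32 members had p under 0.05 in limma's fit, as did 4015 of all 18193 genes. On the log2 scale, proline minus control lay above 0 for 16 members and below 0 for 16, with a median of 0.00 beside −0.03 over all genes, and 23 of the 32 differed by less than 0.5. The median size of the difference was 0.26 for the members and 0.18 for all genes. Of all 18193 genes, 5804 had a group mean under the 40th percentile of signal, 5.36, where no measured member lay. The part of brightness in the comparison with all genes was not tested. All 6 proline arrays lay below all 6 control arrays for 4 members (12.5%, against 10.8% of all genes), and above them for another 4 (12.5%, against 13.8%). These shares were near those of all genes.

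**Figure D1:**
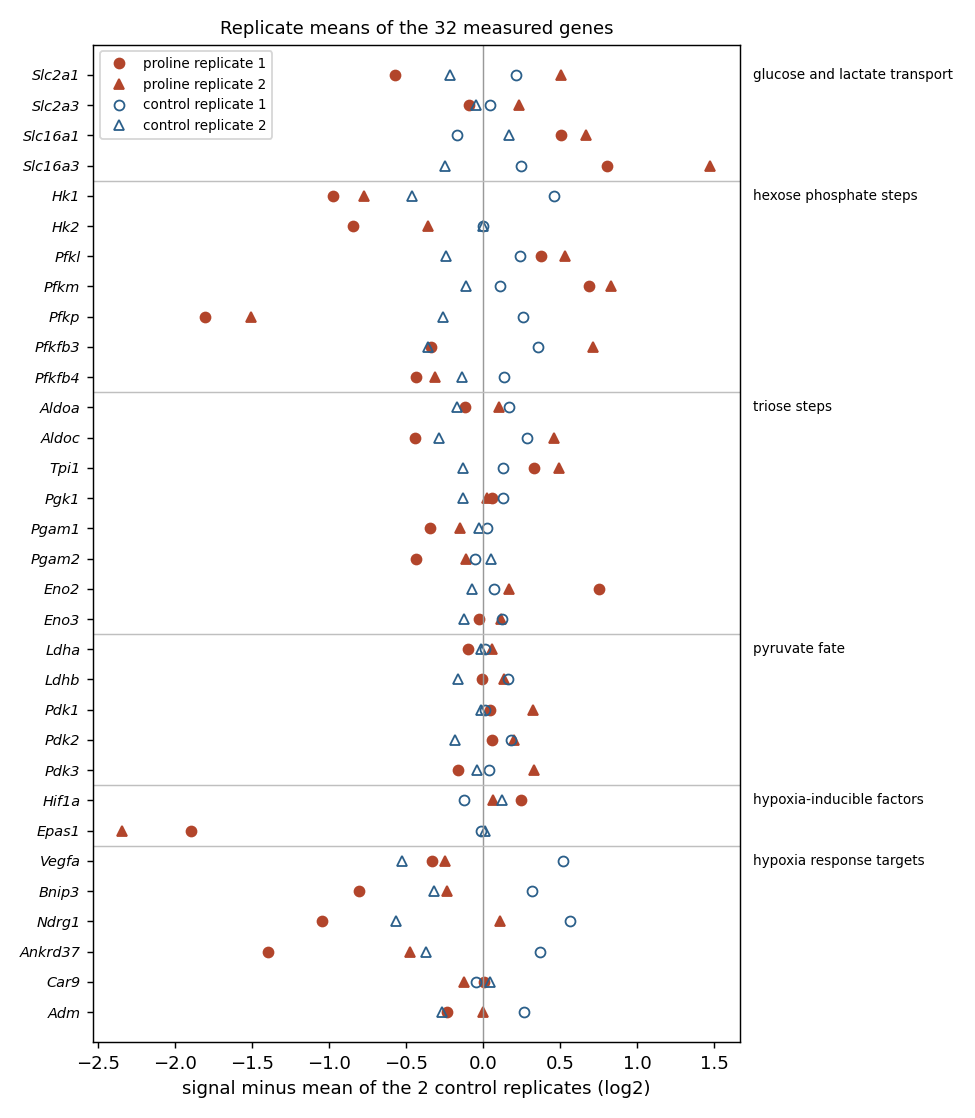
Mean log2 signal of each biological replicate minus the mean of the 2 control replicates (x axis) for the 32 measured genes (y axis), grouped by role. Filled marks are proline and open marks control; circles are replicate 1 and triangles replicate 2. Epas1 and Pfkp lie far to the left in both proline replicates, and 23 of the 32 genes differ by less than 0.5 between the group means.

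Of the hypoxia-inducible factor genes, Epas1 fell after proline and Hif1a did not pass the test. Epas1 encodes the alpha subunit of hypoxia-inducible factor 2 and was the member with the largest difference in the list. Its log2 signal was 8.66 and 8.22 in the 2 proline replicates, against 10.55 and 10.57 in the 2 control replicates. No proline array reached the lowest control array, with proline arrays between 8.11 and 8.72 and control arrays between 10.52 and 10.61. The difference was −2.12 ± 0.18 (log2, limma's standard error, n = 2 replicates a group), 4.34-fold lower after proline, with an adjusted p of 0.0246 in limma's fit. In RNA from whole cultures, fewer cells of a type and less RNA per cell cannot be told apart. A dimmer Epas1 probe set read 6.05 and 5.98 in proline cells, against 7.60 and 7.29 in control cells, a difference of −1.43 with no overlap of arrays. Hif1a, the alpha subunit of the broadly expressed factor, had 11.38 and 11.20 in proline cells, against 11.01 and 11.26 in control cells. The groups overlapped, and the difference of 0.16 ± 0.15 did not pass the test (limma adjusted p = 0.635). The other 3 Hif1a probe sets differed by 0.55, 0.39 and −0.10, each with overlapping arrays. Epas1 minus Hif1a, taken within a replicate, changed by −2.27 in proline cells relative to control cells (log2), while it varied by 0.26 between proline replicates and by 0.21 between control replicates. An exact permutation test of 2 replicates against 2 gave 0.333 for it. No smaller p is possible with this number of replicates, so that test cannot decide. Epas1 had already passed limma's test, so the contrast is a description and no separate support.

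Glucose transport and lactate transport gave no call. Among the carriers, 4 of 4 were measured, none passed the test and 3 lay above 0 (75%, against 43.9% of all genes). Slc16a3, a monocarboxylate carrier that exports lactate from glycolytic cells, had 8.36 and 9.03 in proline cells, against 7.80 and 7.31 in control cells. Its arrays did not overlap, and the difference was 1.14 ± 0.29 (limma adjusted p = 0.117). Slc16a1, the carrier of lactate and pyruvate found in most cells, had 11.47 and 11.63 in proline cells, against 10.79 and 11.14 in control cells, again without overlap. Its difference was 0.59 ± 0.16 (limma adjusted p = 0.136). The main glucose carrier genes, Slc2a1 and Slc2a3, differed by −0.03 and 0.07 with overlapping arrays. The probe sets of Slc2a3 did not read alike. A pair of dimmer ones differed by 0.80 and 0.79, and in the first of them the proline replicates themselves stood apart, at 8.89 and 11.44, beside 8.90 and 9.83 in control cells.

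The phosphofructokinases, which catalyse the committed step of glycolysis, gave differences of unequal size and sign. Pfkp, the platelet type, had 9.92 and 10.21 in proline cells, against 11.98 and 11.46 in control cells. All proline arrays lay below all control arrays, and the difference was −1.65 ± 0.22, 3.15-fold lower after proline (limma adjusted p = 0.0386). Its other probe sets differed by −1.02 and −1.49 without overlap of arrays, although the dimmest one varied by 1.74 between the proline replicates. Pfkm, the muscle type, had 10.12 and 10.26 in proline cells, against 9.54 and 9.32 in control cells. Its arrays did not overlap either, in the opposite direction, and the difference of 0.76 ± 0.14 missed the threshold (limma adjusted p = 0.0633). Pfkl, the liver type, had 11.74 and 11.89 in proline cells, against 11.60 and 11.12 in control cells, with overlapping arrays and a difference of 0.45 ± 0.20 (limma adjusted p = 0.287). A dim Pfkl probe set gave −0.73, with all proline arrays below all control arrays. Within a replicate, Pfkp minus Pfkm changed by −2.41 in proline cells relative to control cells (log2), against variation of 0.15 between proline replicates and 0.29 between control replicates. Pfkp minus Pfkl changed by −2.11, against 0.14 and 0.03. The exact permutation p was 0.333 for both, the smallest possible, so that test cannot decide. Pfkp had already passed limma's test, so these contrasts are descriptions and no separate support.

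Among the other genes of the hexose phosphate steps, the hexokinases, which trap glucose in the cell, had lower signals in proline cells without passing the test. Hk2, the inducible hexokinase, had 11.35 and 11.84 in proline cells, against 12.19 and 12.19 in control cells. Its arrays did not overlap, and the difference was −0.60 ± 0.19 (limma adjusted p = 0.176). Hk1, the constitutive hexokinase, had 8.77 and 8.97 in proline cells, against 10.20 and 9.29 in control cells. The arrays again did not overlap, the control replicates stood 0.92 apart, and the difference was −0.87 ± 0.33 (limma adjusted p = 0.223). A dimmer Hk1 probe set differed by −0.52 with overlapping arrays. Pfkfb3 and Pfkfb4, whose enzymes set the level of fructose-2,6-bisphosphate, the activator of phosphofructokinase, differed by 0.19 and −0.37 with overlapping arrays. With the phosphofructokinases included, the hexose phosphate steps held 7 measured genes. Of these only Pfkp passed the test, as lower (14.3%, against 1.34% of all genes). Above 0 lay 3 of the 7 (42.9%, against 43.9% of all genes) and below 0 lay 4, with a median difference of −0.37.

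**Figure D2:**
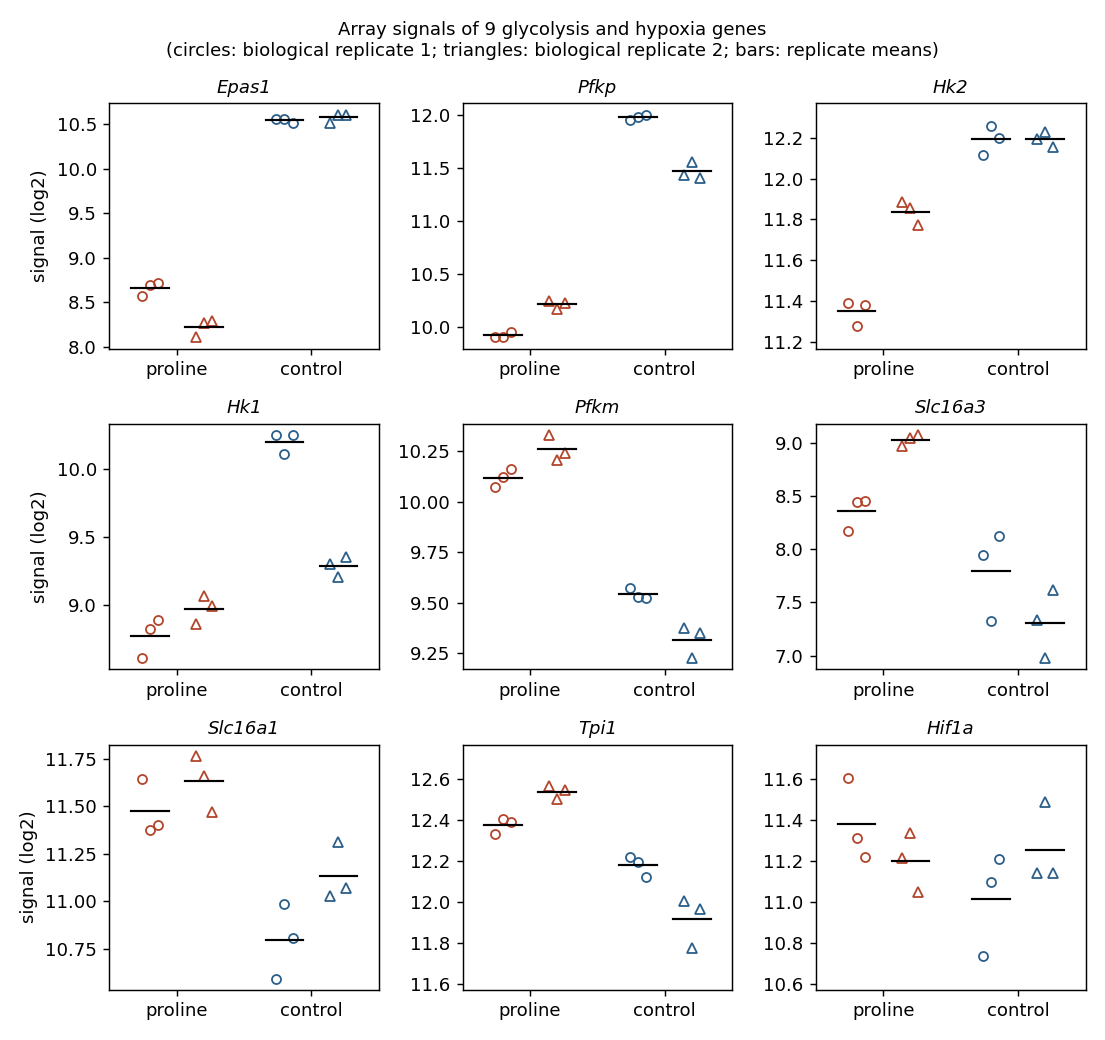
Log2 signal (y axis, own range in each panel) on the 12 arrays for Epas1, Pfkp, the 6 other genes whose groups do not overlap and Hif1a. Proline arrays are at the left and control arrays at the right; circles are biological replicate 1, triangles replicate 2, and bars the replicate means. Epas1 shows proline arrays between 8.11 and 8.72 and control arrays between 10.52 and 10.61, whereas the Hif1a groups overlap.

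The triose steps and the fate of pyruvate gave no call among 13 measured genes. Tpi1, which interconverts the triose phosphates, was the only one of these whose arrays did not overlap. It had 12.38 and 12.54 in proline cells, against 12.18 and 11.92 in control cells, a difference of 0.41 ± 0.15 (limma adjusted p = 0.212). The other measured genes of the triose steps, Aldoa and Aldoc (aldolases), Pgk1 (phosphoglycerate kinase), Pgam1 and Pgam2 (phosphoglycerate mutases) and Eno2 and Eno3 (enolases), differed by between −0.27 for Pgam2 and 0.46 for Eno2. The median over the 8 measured genes of these steps was 0.03. Among genes of pyruvate fate, the lactate dehydrogenase subunits Ldha and Ldhb differed by −0.02 and 0.07. The pyruvate dehydrogenase kinases, which hold pyruvate back from oxidation, differed by 0.19 for Pdk1, 0.13 for Pdk2 and 0.09 for Pdk3. Their probe sets with the highest mean all had overlapping arrays, while a dimmer Pdk1 probe set gave −0.39 with all proline arrays below all control arrays. Gapdh, glyceraldehyde phosphate dehydrogenase, could be read only from array controls and was not tested. Its 3′ control probe set had 14.22 and 14.19 in proline cells, against 14.22 and 14.20 in control cells, close to the highest value of the table, 14.8.

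None of the 6 hypoxia response targets passed the test. All 6 had a negative difference for the probe set with the highest mean, as did 10198 of all 18193 genes. The differences were −0.93 ± 0.40 for Ankrd37, −0.52 for Bnip3, −0.47 for Ndrg1, a stress-responsive gene, −0.29 for Vegfa, the vascular growth factor, −0.12 for Adm, the vasodilator adrenomedullin, and −0.06 for Car9, a carbonic anhydrase. The smallest adjusted p in limma's fit was 0.279, for Ankrd37, and the arrays of all 6 overlapped. For 4 of them the sign changed with another probe set or with 1 replicate left out. The other Adm probe set gave 0.25, and leaving out 1 replicate gave values up to 0.23 for Vegfa, 0.15 for Adm, 0.11 for Ndrg1 and 0.0067 for Car9. Bnip3 kept its sign there, but it read 10.85 in proline replicate 2, above 10.76 in control replicate 2. The median over the 6 targets was −0.38, but it depended on which replicates were set against each other. It was −0.99 for proline replicate 1 minus control replicate 1, −0.26 for proline 1 minus control 2, −0.50 for proline 2 minus control 1 and 0.17 for proline 2 minus control 2.

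**Figure D3:**
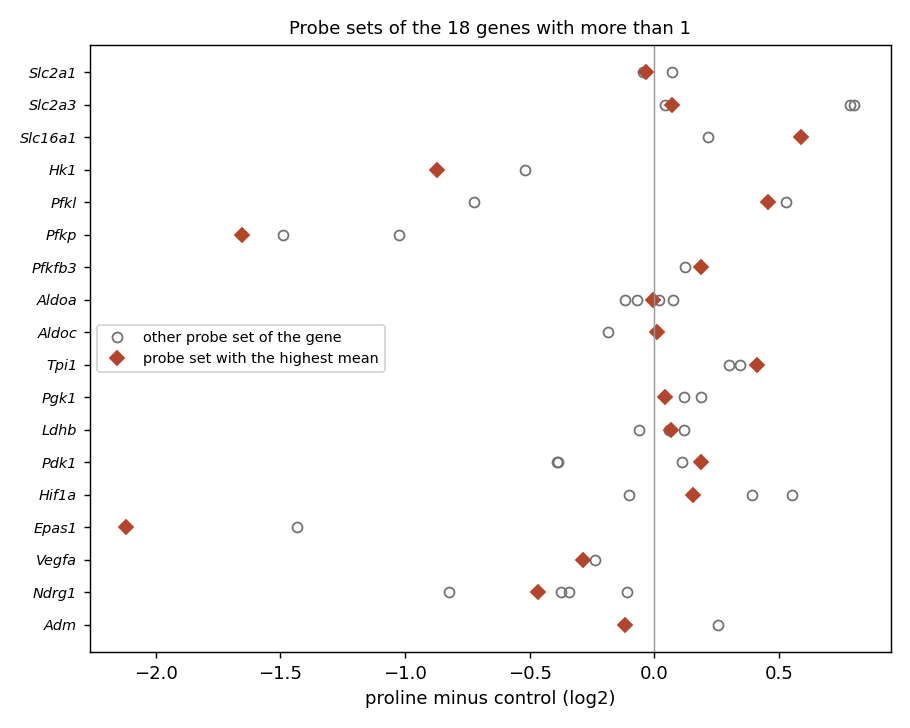
Difference in log2 signal, proline minus control (x axis), for every probe set of the 18 members that have more than 1 (y axis). Filled diamonds are the probe sets with the highest mean, used for the tests, and open circles the others. All probe sets of Epas1 and Pfkp lie left of 0, whereas those of Pfkl, Pdk1 and Hif1a lie on both sides.

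Over all members, 69 probe sets named 1 gene. Of the 18 members with more than 1 probe set, 10 had all of them on the same side of 0 and 8 had them on both sides. Both genes that passed the test, Epas1 and Pfkp, were among the 10.

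Replicates of the same group differed across many members at once. Within the proline group, replicate 2 read higher than replicate 1 for 27 of 32 members (84.4%), against 44.9% of all genes. Within the control group, replicate 2 read higher than replicate 1 for 5 of 32 members (15.6%), against 47.0% of all genes. Both held together for 25 members (78.1%), against 20.0% of all genes. The members' median difference of replicate 2 minus replicate 1 was 0.19 in proline cells and −0.27 in control cells, where all genes had −0.03 and −0.02.

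Genes that stood out in this way were picked after their values were seen. Ndrg1 had 6.87 and 8.03 in proline cells, against 8.48 and 7.36 in control cells, and 1.21% of all genes had a larger difference between the proline replicates and 1.24% between the control replicates. Ankrd37 had 5.99 and 6.91 in proline cells, against 7.75 and 7.01 in control cells. Pfkfb3 had 7.21 and 8.26 in proline cells, against 7.91 and 7.19 in control cells. In each of these genes replicate 1 was the lower of the proline pair and replicate 2 the lower of the control pair. Slc2a1 showed it too, with 11.61 and 12.69 in proline cells, against 12.40 and 11.97 in control cells. Epas1 and Hif1a did not follow it. In the probe sets used, replicate 2 was the lower of the proline pair and the higher of the control pair, by only 0.03 for Epas1. Their other probe sets did not all share this order. Replicate 2 minus replicate 1 of the dimmer Epas1 probe set was −0.07 in proline cells and −0.31 in control cells. For a dimmer Hif1a probe set it was 0.78 and 0.67, and for the dimmest 0.11 and 0.07.

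**Figure D4:**
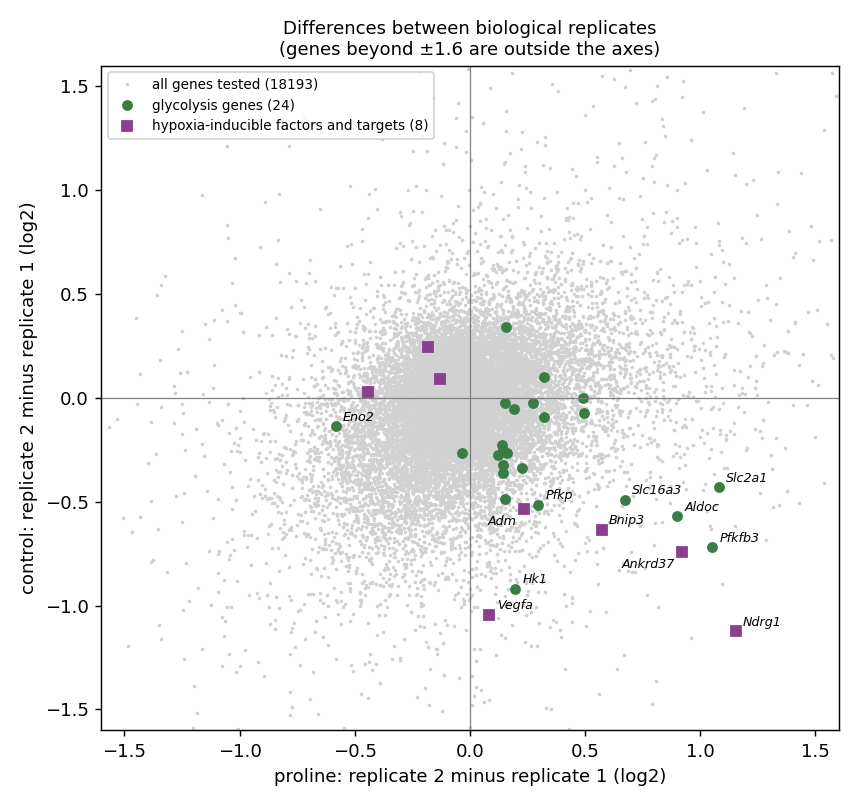
Log2 signal of replicate 2 minus replicate 1 within the proline group (x axis) and within the control group (y axis), for all 18193 genes (grey), 24 glycolysis genes (green circles) and the 8 hypoxia-inducible factors and targets (purple squares). Most members, 25 of 32, lie at the lower right, beyond 0 on both axes, where the plot holds 20.0% of all genes.

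Other measures moved with the replicates and the groups. The mean signal of 8 fibroblast and feeder markers was 5.37 and 5.89 in proline replicates 1 and 2, against 5.77 and 5.40 in control replicates 1 and 2, the same order as most members. Of these markers Col3a1, Postn and Lum were under the 40th percentile of signal, 5.36, in both groups, and none of the 8 passed the test. Beta-actin control probe sets compare the 5′ with the 3′ end of a transcript, and the difference in log2 signal was −0.66 and −0.24 in proline cells, against −0.90 and −0.50 in control cells. Probe sets for 18S ribosomal RNA averaged 9.74 and 8.35 in proline cells, against 10.74 and 10.04 in control cells. The part of each in the results above was not tested. No measured member had a group mean under the 40th percentile.

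The cell type given in the labels was checked against markers. The 8 pluripotent cell markers averaged 12.13 and 12.18 in proline cells, against 12.75 and 12.79 in control cells, and none was under the 40th percentile. Of them 2 passed the test as lower (25%, against 1.34% of all genes). Esrrb fell by 1.49 and Zfp42 by 1.39 on the log2 scale, at limma adjusted p = 0.0246 and 0.0288. All 8 had a negative difference, as did 10198 of all 18193 genes. Of the 8, 4 had all proline arrays below all control arrays (50%, against 10.8% of all genes). Among 6 neural markers Nes and Fabp7 rose (33.3%, against 3.03% of all genes) and Tubb3 fell (16.7%, against 1.34%). None of 7 extraembryonic endoderm and 6 trophoblast markers passed the test. Fabp7 had 5.62 and 5.39 in proline cells, against 4.36 and 4.65 in control cells (limma adjusted p = 0.0498). Its control mean was under the 40th percentile, and Sox1 and Olig2 of the same list were under it in both groups. Among the endoderm markers Dab2 had 8.56 and 8.99 in proline cells, against 6.76 and 7.43 in control cells, without overlap of arrays (difference 1.68, limma adjusted p = 0.0545). Sox17, Afp and Sox7 of the same list were under the 40th percentile in both groups, and the part of such cells in the results was not tested.

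Other genes of the pathway were taken from 5 lists, of glycolysis and gluconeogenesis, pyruvate oxidation, side branches of glucose use, oxygen sensing and further hypoxia response genes. Of 71 genes 62 were measured, 1 rose and 1 fell (1.61% each, against 3.03% and 1.34% of all genes), and 60 did not pass the test. The gene that fell, Kdm3a, encodes a histone H3 lysine 9 demethylase that is itself induced by hypoxia. It had 10.61 and 10.52 in proline cells, against 11.65 and 11.59 in control cells, a difference of −1.05 ± 0.11 (limma adjusted p = 0.0300). The gene that rose, Arnt2, encodes a partner subunit of the hypoxia-inducible factors. It had 7.29 and 7.14 in proline cells, against 6.06 and 6.16 in control cells, a difference of 1.11 ± 0.12 (limma adjusted p = 0.0305). No arrays overlapped for either gene.

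The next in order of p were Tigar, a fructose bisphosphatase that opposes glycolysis, and Hif3a, an alpha subunit related to those of Hif1a and Epas1, neither past the threshold in the fit described above. Tigar had 8.25 and 8.20 in proline cells, against 9.07 and 8.89 in control cells, and differed by −0.75 (limma adjusted p = 0.0519). Hif3a had 9.37 and 9.74 in proline cells, against 8.10 and 8.52 in control cells, and differed by 1.25 (limma adjusted p = 0.0559). Hif3a passed without dim genes (limma adjusted p = 0.0420) and with an intensity trend (adjusted p = 0.0481), and its difference was 0.79 with the median over probe sets (adjusted p = 0.224). Tigar passed after quantile normalization (limma adjusted p = 0.0451). Over the 62 genes the median difference was −0.06, 14 had all proline arrays below all control arrays (22.6%, against 10.8% of all genes) and 5 had them above (8.06%, against 13.8%). The list of pyruvate oxidation genes held 10 measured genes with no call, and 4 of them, including Pcx and Pdk4, had proline arrays all below the control arrays.

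The calls of Epas1, Pfkp, Kdm3a and Arnt2 rested on all 4 biological replicates. Without any 1 of them, which leaves 1 residual degree of freedom, no gene of the 18193 passed the threshold, and the lowest adjusted p of Epas1 was 0.0516 and that of Pfkp 0.0616. The sizes moved less, between −2.34 and −1.90 for Epas1 and between −1.91 and −1.40 for Pfkp. With every probe set tested singly, Epas1 passed at a limma adjusted p of 0.0474, while Pfkp, at 0.0642, Kdm3a and Arnt2 did not. With each gene taken as the median of its probe sets, Epas1 passed at 0.0338 and Kdm3a at 0.0393, while Pfkp, at a difference of −1.04 (adjusted p = 0.191), and Arnt2, at 0.49, did not pass. Taking the 12 arrays as independent samples called 8 members lower and 6 higher, where 17.8% of all genes were lower and 19.6% higher. Keeping the replicate as a random block called 5 lower and 4 higher, where 9.17% of all genes were lower and 12.7% higher. Nothing particular to the members is read from these counts.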

How the data were processed

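RNA of 12 arrays was measured. For 45101 probe sets the authors deposited log2 signals that were already normalized. The methods MAS5 and RMA are named, per the submitters' processing notes, and which made the table is not given in the sources used here. The values ran from 2.10 to 14.8, with array medians between 5.99 and 6.03. Without detection calls, which were not used here, dim signals cannot be told from background.

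Gene symbols came from the platform annotation and were checked by gene ID against RefSeq (GRCm38.p6), which altered 0 symbols and missed 204 probe sets. A single symbol belonged to 34945 probe sets, several to 932 and none here to 9160, and 64 were array controls. The 3 arrays of each biological replicate number were averaged, which assumes that the letters in the titles mark repeats of 1 replicate. Two-sided tests on the 4 means used lmFit and eBayes without covariates (limma 3.58.1, R 4.3.3), and p-values were adjusted by Benjamini-Hochberg over all 18193 genes at a threshold of 0.05. There were 2 residual degrees of freedom and 2.60 from the prior. On simulated data the check required only that the mean estimated change was near the planted one. It set no limit on false calls. The number of replicates limits the precision.

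The members and lists were chosen with earlier results of these data known. Values are given by replicate for members that passed the test, that had arrays without overlap, that encode the alpha subunits Hif1a and Epas1, or that are paralogs of a gene that passed, and for the 4 pathway genes with the smallest p. Promoter windows were cut to the bases before the start. Alternatives were another normalization, centring, a filter on dim genes, other rules for probe sets, other models of the arrays and leaving out each replicate.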

Additional observations from a re-analysis of the deposited data

How the results depend on the processing

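The 2 lower and 0 higher members became 8 and 6 with the 12 arrays as independent samples, and 5 and 4 with a random block for the replicate. The 1 lower and 1 higher of the 62 measured pathway genes became 17 and 9, and 13 and 5. Of all genes, 17.8% were lower and 19.6% higher with independent arrays, and 9.17% and 12.7% with the random block. With every probe set tested, 1 member stayed lower and pathway counts were 0 and 0. With the median over probe sets, 1 member was lower and 0 pathway genes were higher. Quantile normalization gave 2 lower pathway genes, and the dim filter and the intensity trend each gave 2 higher ones. With the replicate number as a block, 1 member, Pfkm, was higher (limma adjusted p = 0.0448). Of the pathway genes 6 were lower, among them Tigar (limma adjusted p = 0.0311), and 2 higher, among them Hif3a (adjusted p = 0.0106). Under that block 757 of all 18193 genes were lower and 1282 higher. The labels do not say that the numbers pair samples. Replicate 2 minus replicate 1 correlated across genes between the groups at r = 0.338, with 2 pairs.

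Without each replicate in turn, all 4 counts lay between 0 and 0, with 2766 to 3676 genes at unadjusted p under 0.05, and the members' median lay between −0.14 and 0.16. Over all genes 794 calls were made, against 6804 with independent arrays, 3987 with the random block, 2039 with the replicate block, 351 with the median over probe sets and 187 with every probe set. Members that changed sign when a replicate was left out had log2 differences of −0.39 to 0.15 for Adm, −0.17 to 0.16 for Aldoa, −0.44 to 0.46 for Aldoc, −0.12 to 0.0067 for Car9, −0.079 to 0.17 for Eno3, −0.097 to 0.056 for Ldha, −0.093 to 0.23 for Ldhb, −1.05 to 0.11 for Ndrg1, −0.052 to 0.31 for Pdk2, −0.16 to 0.33 for Pdk3, −0.34 to 0.71 for Pfkfb3, −0.088 to 0.18 for Pgk1, −0.57 to 0.51 for Slc2a1, −0.091 to 0.23 for Slc2a3 and −0.81 to 0.23 for Vegfa. Other sign changes were Aldoa at 0.012, Aldoc at −0.088, Pdk1 at −0.14 and Adm at 0.067 with the median over probe sets, and Aldoc at −0.038 and Eno3 at −0.0077 after quantile normalization. The causes were not tested. Epas1 and Pfkp kept their direction under all 14 alternatives.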
